A study of Mus musculus with 8 samples.

Results

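The expression of 10 genes of epithelia, 8 keratins and 2 transcription factors, was examined in sacral neural crest cultures from mouse embryos that were wild type or Sox10 Dom/Dom. The genes were the keratins Krt7, Krt8, Krt18 and Krt19 of simple epithelia, Krt5, Krt14, Krt15 and Krt17 of stratified epithelia, and the regulators Trp63 and Grhl2. They were chosen by name, with earlier results of these data known. Each was measured by 1 probe set (the array's group of probes for a transcript) that the platform annotation pairs with that symbol alone. They are 10 of the 6855 genes tested.

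The mutant embryos were homozygous for Dom, a frameshift allele of Sox10 that is carried in every cell of the embryo, and the controls were wild type. Strain and sex are not given in the labels, which also do not say whether embryos were pooled. Both genotypes were taken at embryonic day 9.5. The neural tube caudal to somite 24 was explanted into DMEM/F12 with 10% serum and removed at 24 hours, and the cells that had emigrated onto the dish were lysed. RNA was measured on 8 Affymetrix Mouse Gene 1.0 ST arrays, 4 per genotype, numbered 1 to 4 within each. Levels are the deposited RMA values in log2 units, so a difference of 1 unit is a doubling. All differences are Dom/Dom minus wild type. The labels do not tie the arrays of a genotype to separate cultures, so the tests weigh differences against array-to-array spread that may be technical.

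Keratins are the intermediate filament proteins of epithelial cells. Each filament is built from pairs of an acidic type I chain (here Krt14, Krt15, Krt17, Krt18 and Krt19) and a basic type II chain (Krt5, Krt7 and Krt8). Krt8 and Krt18 are the first pair made in the embryo and the pair of simple epithelia, while Krt5 and Krt14 mark the basal layer of stratified epithelia. Trp63 encodes p63, the regulator of stratified epithelium, and Grhl2 a grainyhead-like factor that activates cell junction genes and is required in the surface ectoderm for neural tube closure. Neural crest cells leave an epithelium by an epithelial-to-mesenchymal transition, and surface ectoderm lies next to the neural folds, so keratin RNA in such a culture can come from more than 1 kind of cell.

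Of the simple keratins, Krt7, Krt8 and Krt18 lie on chromosome 15 and varied together over the arrays, as described below. The 250 bases before the transcription start of these 3 genes are shown because the genes varied together and lie in the same keratin gene cluster. The sequences are from RefSeq on GRCm38.p6, 5′ to 3′ on the gene's strand, at chr15:101412153-101412402 (+) for Krt7, chr15:102004343-102004592 (-) for Krt8 and chr15:102027966-102028215 (+) for Krt18. Capitals mark matches on either strand to GCCNNNGGC (TFAP2), ACAAAG (SOX) or GGGCGG (SP1).
Krt7: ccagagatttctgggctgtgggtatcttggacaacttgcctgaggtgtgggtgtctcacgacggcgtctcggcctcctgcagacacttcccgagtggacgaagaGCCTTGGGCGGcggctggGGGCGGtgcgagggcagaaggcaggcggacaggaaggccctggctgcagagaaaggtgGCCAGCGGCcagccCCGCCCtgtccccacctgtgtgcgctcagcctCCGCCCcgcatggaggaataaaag
Krt8: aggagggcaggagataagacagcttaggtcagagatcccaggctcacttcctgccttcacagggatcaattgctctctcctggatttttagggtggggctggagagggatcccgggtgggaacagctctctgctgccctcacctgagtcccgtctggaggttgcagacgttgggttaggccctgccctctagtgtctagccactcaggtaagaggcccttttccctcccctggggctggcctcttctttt
Krt18: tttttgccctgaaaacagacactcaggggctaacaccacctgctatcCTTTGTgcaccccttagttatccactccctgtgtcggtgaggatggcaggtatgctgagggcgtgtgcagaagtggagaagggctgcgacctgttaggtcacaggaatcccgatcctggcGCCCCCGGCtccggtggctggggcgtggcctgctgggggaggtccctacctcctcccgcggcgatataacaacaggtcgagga
Krt7 held 2 TFAP2 and 4 SP1 matches, 1 of each overlapping in a single run of capitals. Krt18 held 1 TFAP2 match and 1 SOX match, the latter on the reverse strand. Krt8 held 0 matches to these motifs in this window. No window of the 3 held AACNNGTT, a grainyhead core. Of 32851 RefSeq promoter windows of the same length, 13.7% held the TFAP2 letters, 16.5% the SOX letters, 32.7% the SP1 letters and 3.64% the grainyhead letters. Windows were found for 5 of the 10 genes, and those of Krt5 and Krt14 held 0 matches to any of the 4 motifs. The Krt14 window belongs to a start that lies inside the gene's full RefSeq span, and is not upstream of the whole gene as the other 4 are. A match is a match of letters and not a measured binding site.

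Sox10 (probe set 10430458) stood at 9.98, 10.94, 10.52 and 10.55 in Dom/Dom replicates 1 to 4 and at 11.67, 11.46, 11.89 and 11.75 in wild type (limma adjusted p = 0.0168). The level was 2.29-fold lower in Dom/Dom. A frameshift need not remove the transcript, so this level is no check of the genotype. Array medians over the 6855 genes lay between 9.18 and 9.33, and arrays correlated at 0.985 to 0.998. The values carry no detection calls. As a rough guide to dim signal, the mean levels of 213 olfactory receptor genes, which are not expected to be transcribed in these cells, had a 95th percentile of 8.22. By that guide the probe sets of 7 of the 10 genes were brighter and those of Krt15, Krt17 and Grhl2 were not. Krt5 was above 8.22 on 4 of 8 arrays. Levels of different probe sets depend on their probes and do not rank the genes.

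None of the 10 genes differed between genotypes at a limma adjusted p below 0.05 over all genes (0 of 10, where 0.481% of all tested genes did). At an unadjusted p below 0.05 there were 4, all lower in Dom/Dom (Krt8, Grhl2, Krt5 and Krt14), where 6.11% of all genes passed. With the replicate number as a block, which compares same-numbered arrays, 1 of 10 fell, Krt8 (1.05% of all genes fell in that fit). The mean difference was below 0 for 9 of the 10 genes, with Krt19 the exception, and their median difference was -0.18. Over all genes 50.4% were below 0 and the median was -0.001. Several of the 10 genes varied together over the arrays, as described below, so they are not 10 separate observations. Krt7, Krt8, Krt17 and Grhl2 were lower in Dom/Dom in 4 of 4 same-numbered pairs, as were 10.7% of all genes. In 0 of 10 genes did the groups fail to overlap, against 3.78% of all genes. In these bulk cultures, fewer cells of a type and less RNA per cell cannot be told apart.

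**Figure D1:**
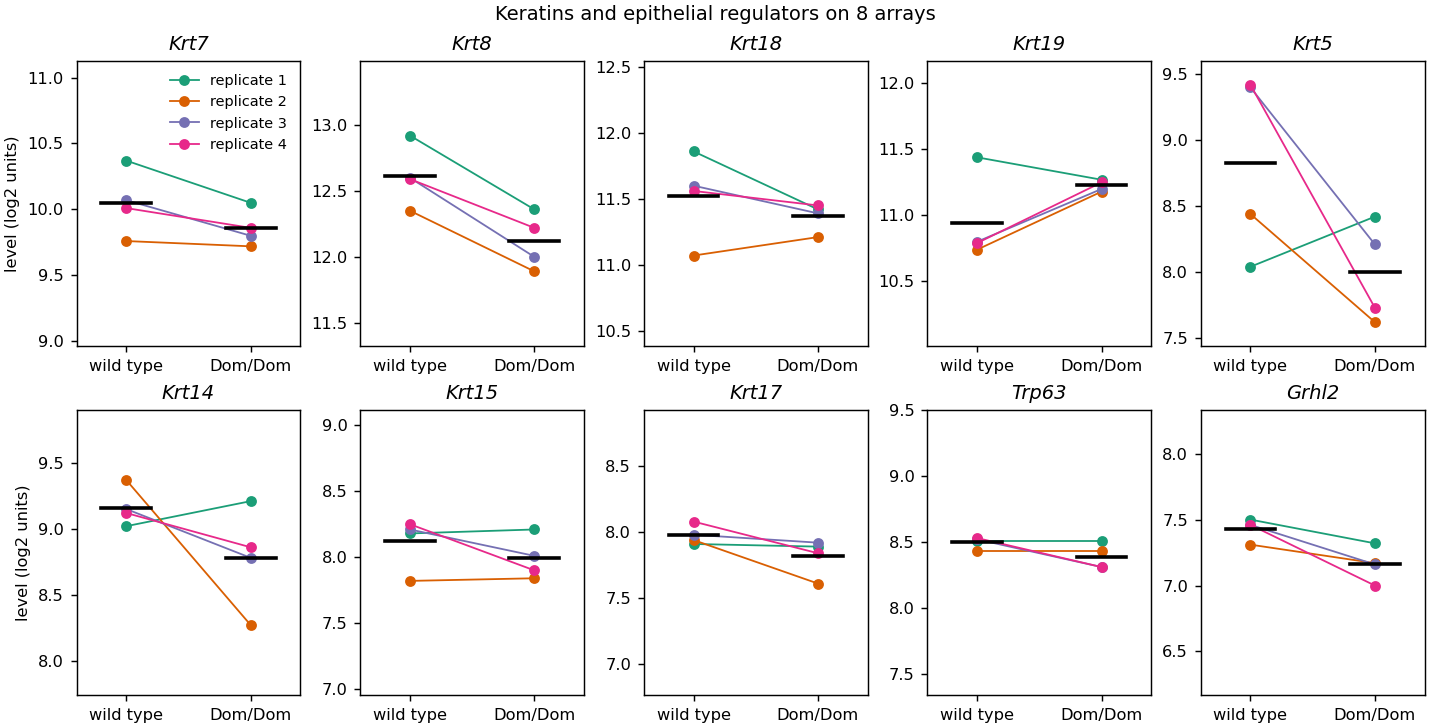
Level of each gene in log2 units (vertical axis, of equal height in every panel) in wild-type and Dom/Dom cultures. Points are arrays, coloured lines join arrays of the same replicate number, and black bars are group means. Krt8 is lower in Dom/Dom along all 4 lines, Krt19 is higher along 3, and Krt5 spreads most, from 7.62 to 9.42.

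Krt8, the type II keratin of simple epithelia (probe set 10432918), was 1.41-fold lower in Dom/Dom. It stood at 12.36, 11.89, 12.00 and 12.22 in Dom/Dom replicates 1 to 4 and at 12.92, 12.35, 12.60 and 12.59 in wild type. The highest Dom/Dom array and the lowest wild-type array nearly met, so the groups just overlapped. The same-numbered differences were -0.56, -0.46, -0.60 and -0.36. Replicate 1 was the highest and replicate 2 the lowest array in both genotypes, so the drop within each pair was more even than the levels themselves. Krt8 differed by -0.50 on average, with a 95% interval of -0.80 to -0.19 and a standard error of 0.14 (limma adjusted p = 0.232). Blocking on replicate number lowered the standard error to 0.06 and gave adjusted p = 0.0164. That blocked call held without the arrays of replicate 1 (adjusted p = 0.0115) or of replicate 2 (0.0386), and it was lost without those of replicate 3 (0.118) or of replicate 4 (0.0933).

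Krt18, the type I partner of Krt8 (probe set 10427075), did not pass in any fit that was run. Its levels were 11.42, 11.21, 11.39 and 11.45 in Dom/Dom and 11.86, 11.07, 11.60 and 11.56 in wild type. Wild-type replicate 2 was the lowest of the 8 arrays and wild-type replicate 1 the highest, so the wild-type arrays enclosed all Dom/Dom arrays. Krt18 differed by -0.16 on average, with a 95% interval of -0.48 to 0.17 (limma adjusted p = 1.00). The value rested on single arrays, at -0.04 without wild-type replicate 1, -0.31 without wild-type replicate 2 and -0.10 without Dom/Dom replicate 2. Within each array, Krt8 minus Krt18 was 0.94, 0.68, 0.61 and 0.77 in Dom/Dom replicates 1 to 4 and 1.05, 1.28, 1.01 and 1.02 in wild type. This gap was smaller in each Dom/Dom array than in any wild-type array. At the nearest it was 0.94 in Dom/Dom against 1.01 in wild type. The gap was looked at after the levels had been seen and was not tested. How many gene pairs separate in this way was not counted, so no unequal change of the 2 genes is drawn from it.

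Krt7, a type II keratin of ducts and glandular epithelia (probe set 10427052), was at 10.05, 9.72, 9.80 and 9.86 in Dom/Dom and at 10.37, 9.76, 10.07 and 10.01 in wild type. Each Dom/Dom array lay below its wild-type counterpart, by 0.05 to 0.32 units, and the groups overlapped. Their mean, -0.20 (SE 0.13, limma adjusted p = 1.00), was smaller in size than that of Krt8, although both genes had the same order of replicates in wild type, with replicate 1 highest and replicate 2 lowest. Without wild-type replicate 1 the difference of Krt7 was -0.09.

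Krt19, the short type I keratin that lacks a tail domain (probe set 10391036), ran the other way. The Dom/Dom arrays lay close together, at 11.27, 11.18, 11.20 and 11.25, and the wild-type arrays at 11.44, 10.74, 10.80 and 10.79. Wild-type replicates 2 to 4 were below all Dom/Dom arrays and wild-type replicate 1 was above them all. The same-numbered differences were therefore -0.16 in pair 1 and 0.44, 0.40 and 0.46 in pairs 2 to 4. The mean difference over all arrays was 0.29 with a 95% interval of -0.03 to 0.60 (limma adjusted p = 0.951). The SD over 4 arrays was 0.04 for the mutant and 0.33 for the wild type. Without wild-type replicate 1 the difference was 0.45 and passed (adjusted p = 0.0372). With the replicate block and without both arrays of replicate 1 it was 0.44 (adjusted p = 0.00832).

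**Figure D2:**
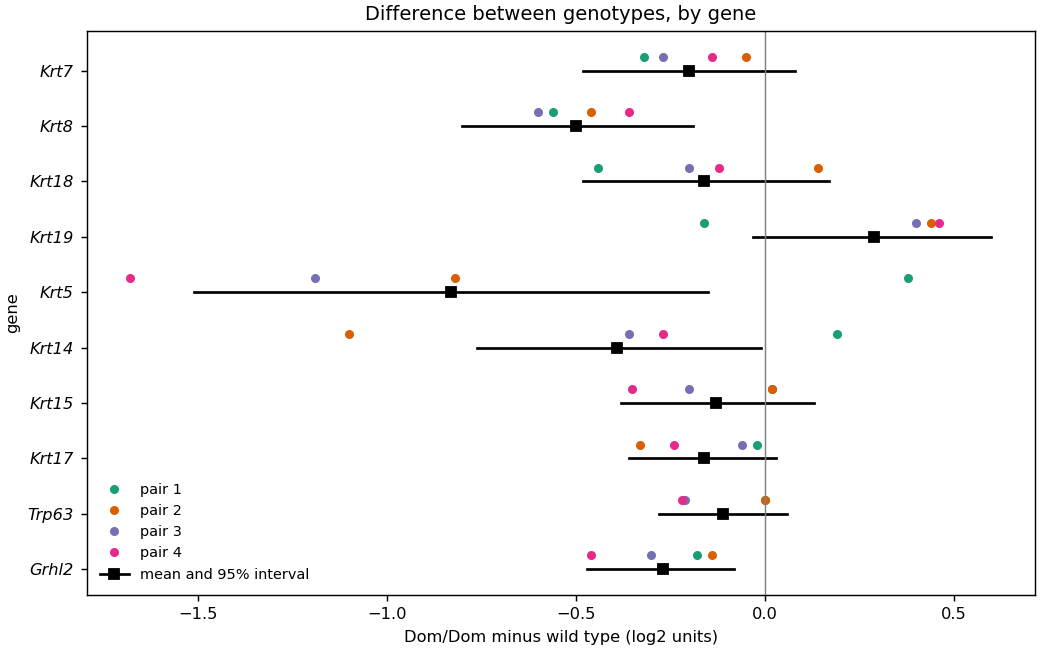
Dom/Dom minus wild type in log2 units (horizontal axis) for each gene. Black squares are means over 4 arrays per genotype with 95% intervals from limma without a block, and coloured points are the 4 same-numbered pairs. The pairs of Krt8 lie between -0.60 and -0.36, those of Krt5 between -1.68 and 0.38, and Krt19 has 3 pairs at 0.40 or above.

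Among keratins of stratified epithelia, Krt5 had the largest mean difference of the 10 genes and the widest scatter. This type II keratin of basal cells (probe set 10432785) stood at 8.42, 7.62, 8.21 and 7.73 in Dom/Dom and at 8.04, 8.44, 9.40 and 9.42 in wild type. Wild-type replicates 3 and 4 stood about 1 unit above the other 6 arrays, which were near the dim range. The same-numbered differences ran from 0.38 in pair 1 through -0.82 and -1.19 to -1.68 in pairs 2 to 4. On average Krt5 differed by -0.83 (SE 0.31), with a 95% interval of -1.51 to -0.15 (limma adjusted p = 0.554; blocked, 0.286). It passed with array weights, which give less weight to arrays that vary more (-1.16, adjusted p = 0.0392), and with the block once both arrays of replicate 1 were left out (-1.23, adjusted p = 0.00958). With the block it was -0.83 without replicate 2 (adjusted p = 0.394), -0.71 without replicate 3 (0.769) and -0.55 without replicate 4 (0.789).

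Krt14, the type I partner of Krt5 (probe set 10391052), did not follow the same arrays. It was at 9.21, 8.27, 8.78 and 8.86 in Dom/Dom and at 9.02, 9.37, 9.15 and 9.12 in wild type. The wild-type arrays were close together and Dom/Dom replicate 2 was low, so the pair differences were 0.19, -1.10, -0.36 and -0.27. The mean difference was -0.39 with a 95% interval of -0.76 to -0.01 (limma adjusted p = 0.786). Without Dom/Dom replicate 2 it was -0.22, a change of more than 1.5 times.

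Krt15 and Krt17, type I keratins of basal cells and of skin appendages and injured epithelium, had mean levels within the dim range. Krt15 (probe set 10391025) ran from 7.84 to 8.21 in Dom/Dom and from 7.82 to 8.25 in wild type, a mean difference of -0.13 (limma adjusted p = 1.00). Krt17 (probe set 10391066) ran from 7.61 to 7.92 in Dom/Dom and from 7.91 to 8.08 in wild type, a mean difference of -0.16 (adjusted p = 1.00). Both ranges overlapped between genotypes, and at this signal RMA compresses differences.

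Neither of the 2 regulators passed in any fit that was run. Grhl2 (probe set 10423770) was at 7.32, 7.17, 7.16 and 7.00 in Dom/Dom and at 7.50, 7.31, 7.46 and 7.46 in wild type. All 4 pairs were lower in Dom/Dom, by 0.14 to 0.46 units, and the groups overlapped narrowly at 7.31 and 7.32. Grhl2 differed by -0.27 on average (SE 0.09), with a 95% interval of -0.47 to -0.08. The limma adjusted p was 0.403 without the block, 0.124 with it and 0.0512 with array weights. Its probe set was below 8.22 on all 8 arrays, where a small difference is hard to read. Trp63 (probe set 10434815) varied least of the 10 genes, within 0.22 units over all arrays. Its same-numbered arrays had equal levels at 2 decimals in pair 1 (8.51) and in pair 2 (8.43), and in pairs 3 and 4 Dom/Dom was lower by 0.21 and 0.22. Its mean difference was -0.11 with a 95% interval of -0.28 to 0.06 (adjusted p = 1.00).

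How the genes varied among themselves was described by correlating deviations from the genotype means over the 8 arrays. Krt7, Krt8 and Krt18 formed the tightest group, with r = 0.96 for Krt7 and Krt8, 0.90 for Krt7 and Krt18 and 0.84 for Krt8 and Krt18. Krt19 joined them at 0.73 to 0.82 although its mean difference had the opposite sign, and the dim Krt15 was about as close, at 0.70 to 0.74. Krt5 was at -0.05, -0.03 and 0.05 with the same trio and at -0.58 with Krt19. Krt5 and Krt14 with Krt17 gave 0.68 and 0.69, and the filament partners Krt5 and Krt14 gave 0.36. Trp63 and Grhl2 were at 0.85 with each other. These points share arrays, normalization and replicate number, and 3 of the genes are dim, so the coefficients are descriptions only.

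**Figure D3:**
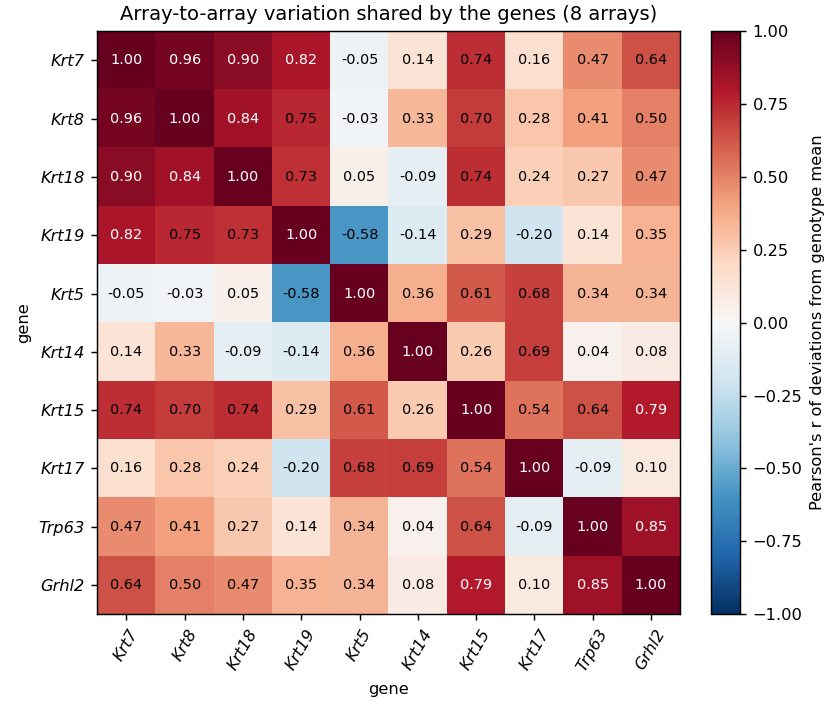
Pearson's r between genes (both axes) of each array's deviation from its genotype mean, over 8 arrays, with the colour scale from -1 to 1. The block of Krt7, Krt8, Krt18 and Krt19 holds values from 0.73 to 0.96, and Krt5 lies between -0.58 and 0.05 with those 4.

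The genes whose profile over the 8 arrays was most like that of Krt8, by Pearson's r of levels, were Cxcl16 (r = 0.968), Gm10825 (0.949), Arsa (0.945), Arhgap23 (0.934) and Ctsb (0.934). Being picked for their likeness to Krt8, they share its direction by that choice, and no call is drawn from it. Cxcl16, a membrane-bound chemokine, differed by -0.46 in a probe set below 8.22 on all 8 arrays, and Gm10825 by -0.73. When the genotype means were removed, the most similar genes were Perp (r = 0.983), Zfp750 (0.975), Agfg1 (0.973), Atp12a (0.970) and Krt7 (0.959). Perp is a desmosome protein of stratified epithelia and Zfp750 a factor of epidermal differentiation. Zfp750 had a mean of 8.29, near the dim limit, and Atp12a was within the dim range, at 7.40 on its highest array. Whether epithelial genes are common among those most like Krt8 was not tested. Perp levels were 10.49, 9.61, 10.01 and 10.20 in Dom/Dom and at 10.75, 9.70, 10.10 and 10.17 in wild type. As for Krt8, replicate 1 was highest and replicate 2 lowest in both genotypes, with a mean difference of -0.10 (adjusted p = 1.00).

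Beyond these 8, 44 keratin genes were measured, among them the hair keratins and those of differentiated epidermis. By limma 0 of 44 passed with or without the block, 1 did at an unadjusted p below 0.05, and their median difference was -0.01. Of these probe sets, 34 were at or below 8.22. The largest difference was that of Krt20, a type I keratin of intestinal and urothelial epithelium that was among these dim probe sets and above 8.22 on 3 of 8 arrays, at 8.19, 8.44, 8.29 and 8.74 in Dom/Dom and 8.12, 8.18, 7.91 and 7.93 in wild type. Every Dom/Dom array was above every wild-type array, which held for 1.18% of all genes in this direction. The difference was 0.38 (limma adjusted p = 0.410; 0.206 with the block). Next in size were Krt28 at -0.12 and Krt4 at -0.11. Krt19 and the dim Krt20 were thus the 2 measured keratins with the largest positive differences.

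**Figure D4:**
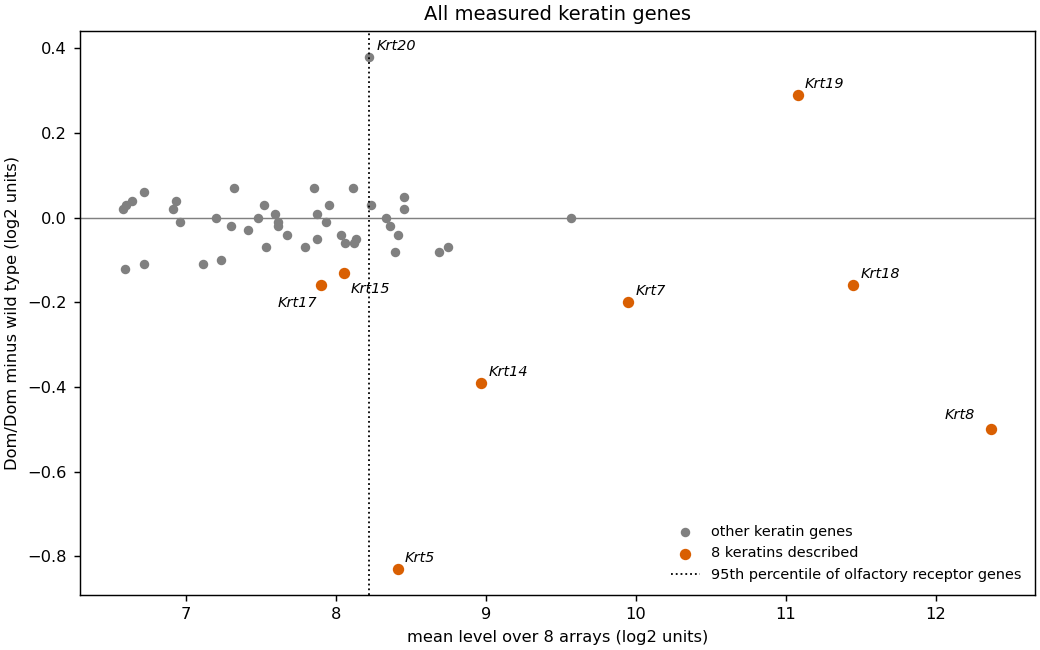
Dom/Dom minus wild type (vertical axis, log2 units) against the mean level over 8 arrays (horizontal axis, log2 units) for 52 keratin genes. Orange points are the 8 keratins described and grey points the other 44, which except for Krt20 lie between -0.12 and 0.07. The dotted line at 8.22 is the 95th percentile of the olfactory receptor genes.

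The measured cell junction genes of epithelia differed little and in both directions. Of all genes tested 97.9% lay on chromosomes 1 and 10 to 16. Listed genes on other chromosomes were thus mostly not measured, here and in the lists below. Of 41 listed genes 17 were measured, and 0 of 17 passed the limma threshold with or without the block (2 at an unadjusted p below 0.05), with 12 below 0 and a median of -0.08. The largest differences were those of Pkp2 and Jup, both desmosome plaque proteins, in opposite directions. Pkp2 was at 11.60, 11.73, 11.61 and 11.82 in Dom/Dom and at 11.65, 11.39, 10.98 and 11.17 in wild type, a difference of 0.39 (limma adjusted p = 0.453). Jup, which encodes plakoglobin, was at 11.32, 11.06, 11.04 and 11.10 in Dom/Dom and at 11.70, 11.05, 11.66 and 11.53 in wild type, a difference of -0.36 (adjusted p = 0.619). Wild-type replicate 1 was the highest wild-type array for both, as it was for Krt7, Krt8, Krt18, Krt19 and Grhl2. That array was the highest of its genotype for 5 of the 10 genes and for 35.3% of all genes, and its part in the differences was not tested beyond leaving it out. Next came Llgl2, a cell polarity gene, with 0.30 (adjusted p = 1.00). Dsp, the desmoplakin that ties keratins to desmosomes, had mean levels of 10.25 ± 0.09 in the mutant cultures and 10.27 ± 0.19 in the controls (SD, n = 4).

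Of 24 other transcription and splicing factors of epithelia and surface ectoderm, 8 were measured. By limma 0 of 8 passed without the block (2 at an unadjusted p below 0.05), and with the block 1 fell, Tfap2a. The AP-2 factor Tfap2a, expressed in both surface ectoderm and neural crest, differed by -0.50 (limma adjusted p = 0.108; 0.0418 with the block). It ran from 11.08 to 11.46 in Dom/Dom and from 11.59 to 11.95 in wild type. The groups thus did not overlap, as for 3.78% of all genes in either direction. Klf5, a Krüppel-like factor of proliferating epithelia, was at 10.94, 10.76, 10.76 and 10.83 in Dom/Dom and at 10.92, 10.43, 10.30 and 10.30 in wild type. It shared with Krt19 a wild-type replicate 1 well above the other 3, and its difference was 0.33 (adjusted p = 0.644). Msx2 came next and differed by 0.10 (adjusted p = 1.00).

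Of 7 measured intermediate filament genes other than keratins, 0 passed with or without the block (limma; 1 at an unadjusted p below 0.05), and their median difference was -0.08. Des, the muscle filament gene, was higher in each Dom/Dom array than in any wild-type array, by a mean of 0.36 (limma adjusted p = 0.371). Such a separation in this direction held for 1.18% of all genes. Prph and Nefm, filament genes of neurons, differed by -0.22 and -0.21 (adjusted p = 1.00 for both). Of a list of mesenchymal transcription factors, 4 of 9 were measured, and 0 of 4 passed without the block (0 at an unadjusted p below 0.05). With the block 1 rose, Prrx1 (difference 0.44, adjusted p = 1.00; 0.0339 with the block), where 31 of 6855 genes rose in that fit. Prrx1 was at 10.66, 10.54, 11.20 and 11.39 in Dom/Dom and at 10.17, 9.93, 10.93 and 10.99 in wild type. Replicates 3 and 4 thus stood above replicates 1 and 2 in both genotypes. Twist2 and Snai2 differed by 0.27 and -0.19 (adjusted p = 1.00 for both).

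Markers of other cells that could bring keratin RNA into the cultures were read in the same fit. Neural crest RNA was present in both genotypes. The neurotrophin receptor gene Ngfr had a mean of 11.93 ± 0.08 in the controls and 10.98 ± 0.68 in the mutant cultures (SD, n = 4), lower in 3 of 4 pairs (limma adjusted p = 0.267). Fabp7 and Sox9 differed by -0.08 and 0.09 (adjusted p = 1.00 for both). In the same list, 5 of 9 measured crest and glial markers fell by limma (Sox10, Erbb3, Cdh19, Dct and Pmel), where 0.481% of all genes passed in either direction. With the block the number was the same, where 1.05% of all genes fell. The list was chosen with earlier results of these data known and holds the mutated gene itself. Ednrb, also of that list, was lower by a mean difference of -0.92 but did not pass (limma adjusted p = 0.0718, and 0.0644 with the block). The mean level of the 9 was 10.26 to 10.52 in Dom/Dom arrays and 11.57 to 12.12 in wild-type arrays. Of 12 endoderm markers 4 were measured, and their mean level was 7.95 to 8.16 in Dom/Dom and overlapped wild type. That mean joins unlike probe sets, with Gata4 and Foxa1 above 8.22 on 8 of 8 arrays and Vil1 on 0. Their 3 largest differences were those of Gata4 (0.06), Foxa1 (-0.05) and Vil1 (0.04). The nephric duct list had 2 of 10 measured, Lhx1 (-0.24) and Wnt9b (0.00). Lhx1 was high in Dom/Dom replicate 1, at 10.13 where the remaining mutant arrays ran from 8.69 to 9.09, so its pair differences were 1.18, -0.79, -0.65 and -0.72. Wnt9b did not share this pattern, at 0.11, -0.13, 0.11 and -0.07. Of the neuronal filament genes named above, Nefm had the same signs as Lhx1 (0.47, -0.42, -0.45 and -0.45). Prph did not (-0.26, 0.04, -0.39 and -0.25). Which cells held the Lhx1 RNA was not tested, and its level does not identify nephric duct cells. The notochord list had 2 of 6 measured, Chrd (0.02) and Foxj1 (-0.01). Apob of the yolk sac and trophoblast list (0.05), Pecam1 of the endothelial list (-0.03) and the embryonic globin Hba-x (-0.70) were the single measured genes of theirs, and of 6 mesothelial markers 0 were measured. In these 6 measured lists 0 genes passed the limma threshold, and 0 did at an unadjusted p below 0.05. The part of any such cells in the keratin levels was not tested.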

How the data were processed

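Per the submitters' processing notes, the authors used RMA and Partek (no version or setting is recorded there). Each deposited value is a probe set's log2 expression on 1 array. The table used here held 16381 probe sets, of which 7416 had 1 gene symbol in the platform annotation. The brightest per gene was kept, leaving 6855 genes, 97.9% of them on chromosomes 1 and 10 to 16; 6829 matched the RefSeq table (GRCm38.p6) by gene identifier.

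Genotype and replicate number come from the sample titles. The test was limma's moderated two-sided test of genotype (version 3.58.1, R 4.3.3), adjusted by Benjamini-Hochberg over all 6855 genes. Deviations of same-numbered arrays correlated at 0.47, 0.58, 0.61 and 0.67, which was read as pairing, though no label states it. On simulated data, 95 of 100 genes changed by 1 log2 unit and 100 of 100 changed by 2 were called. These counts describe the simulated data and are not the power of the test on these arrays. Without the block, Ngfr (-0.95, limma adjusted p = 0.267) and Ednrb (-0.92, 0.0718) did not pass, while Sox10 (-1.2, 0.0168) did. The largest member difference in that fit, Krt5 at -0.83, was smaller than 1 unit in size, so the counts do not bear on the members. Other than members and Sox10, the text names in each list the genes past the threshold in either fit and the 3 largest differences, and the 5 genes most like Krt8. Dsp, Ngfr, Fabp7, Sox9 and Ednrb were added as markers after their values were seen. Members and lists were chosen with earlier results of these data known. Alternatives were the block, centring, quantile normalization, a filter on dim genes, probe set rules, an intensity trend, array weights and leaving out arrays. The number of arrays limits the precision.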

Additional observations from a re-analysis of the deposited data

Results flagged for a closer look

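In 22 sets of 4 arrays (the 10 genes and Sox10 in each genotype), 2 held an array far from the other 3, where about 1.1 are expected by chance. Krt19 was high in wild-type replicate 1, at 11.44 against 10.74 to 10.80 in the other wild-type arrays. Krt15 was low in wild-type replicate 2, at 7.82 against 8.18 to 8.25, in a probe set within the dim range.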

How the results depend on the processing

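Over the alternatives, the differences of the 10 genes kept their sign in 197 of 197 values and their side of the threshold in 189. The block on all arrays, the filter on dim genes, the probe set rules and the intensity trend leave these differences unchanged by construction. In those fits the sign could not change, so the count of 197 overstates how often it was put to a test. The 8 values that newly passed were 4 of Krt8, 2 of Krt5 and 2 of Krt19. With the replicate block 1 of the 10 genes passed, Krt8 (-0.50), and the block changed no other call among them; over all genes it gave 103 calls in place of 33. With array weights 2 passed, Krt8 (-0.52) and Krt5 (-1.16), and 190 over all genes. Leaving out 1 array gave 0 to 1 of the 10 genes (Krt19 at 0.45 without wild-type replicate 1) and 10 to 51 over all genes. The counts over all genes were 11 and 12 without Dom/Dom replicates 3 and 4, 10 without either wild-type replicate 3 or 4, and 51 without wild-type replicate 2. Sox10 then lay between -1.34 and -1.02, and did not pass without an array of replicate 3 or 4. The block without both arrays of 1 number, chosen after seeing the data, gave 0 to 3 of the 10 genes. Without numbers 1 to 4 in turn it gave 475, 112, 15 and 13 calls over all genes, and Sox10 at -1.03, -1.42, -1.14 and -1.19, not passing without number 3 or 4. With 4 arrays per genotype and no detection calls, signal over background limits what can be said of Krt15, Krt17 and Grhl2, which the filter on dim genes removed.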
